A study of Drosophila melanogaster with 6 samples.

Results

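The core clock genes of the fly are read here in head RNA together with takeout, a gene whose rhythm the clock drives. They are 9 of the 17545 genes in the deposited count tables: period (per), timeless (tim), Clock (Clk), cycle (cyc), vrille (vri), PAR-domain protein 1 (Pdp1), clockwork orange (cwo), cryptochrome (cry) and takeout (to). They were chosen by name, with earlier results of these same libraries known, so their differences between groups and between replicate numbers are given below as descriptions and support no test.

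The libraries came from heads of 5-day-old female Drosophila melanogaster, with 15 heads pooled in each according to the methods. In the study's scheme the control group, ND, came from ancestors raised on normal food with 10% sucrose. The HSD-F1 group came from flies raised from egg to adult on a high-sugar diet with 20% sucrose, which were then mated. HSD-F1 flies were themselves moved to normal food as embryos, so the flies sampled had eaten the same diet in both groups. The sample titles speak of exposed ancestors, without naming the sex of the parent. Each group had 3 libraries, described as biological replicates and numbered 1 to 3 in the labels. All 6 libraries carry the genotype W+VDRC in the labels, with no transgene, driver or drug named, while the study describes its general breeding scheme with Canton-S flies, so the strain is not settled here. Flies were kept in 12 h of light and 12 h of dark. The hour at which heads were taken, and what a replicate number stands for, are not given in the sources used here.

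The fly clock runs on interlocked transcription loops. CLK and CYC bind DNA together and switch on per and tim in the course of the day, and the PER and TIM proteins later enter the nucleus and shut CLK and CYC off, so that per and tim mRNA peak early in the night. In a further loop CLK and CYC also switch on vri, Pdp1 and cwo. VRI represses Clk, PDP1 activates it, and CWO damps the targets of CLK and CYC, which leaves Clk mRNA peaking around dawn, opposite to per and tim. CRY is the blue-light receptor that leads to the loss of TIM in light, and its mRNA peaks near the phase of Clk. Takeout is a secreted protein related to juvenile hormone binding proteins and is known for its roles in feeding, starvation and male courtship.

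Library totals ran from 20266352 to 26190694 counts, and a member had between 379 and 26085 counts in a library. Values are given as CPM, each count over the library total in units of 1e6 counts, after scaling by the trimmed mean of M-values (TMM). Photoreceptor markers summed to 38085 to 39832 CPM in ND, against 33674 to 44644 CPM in HSD-F1, and 5 neuronal markers to 2856 to 2891 and 2739 to 3110 CPM, as the head label implies. Glial markers summed to 1461 to 1627 CPM in ND and to between 1376 and 1538 CPM in HSD-F1, and muscle markers to 3523 to 4746 CPM in ND, against 4040 to 4373 CPM in HSD-F1. Of the 10 male markers, 3 were at 0 in every library and only 2 had at least 10 counts over the 6 libraries. These 2 summed to 0.0801 to 0.342 CPM in ND, against 0.197 to 0.422 CPM in HSD-F1. The ovary and egg markers are mostly chorion and vitelline membrane genes, and 8 of the 10 had at least 10 counts over the 6 libraries. These 8 summed to 2.28, 2.62 and 56.3 CPM in ND replicates 1, 2 and 3 and to 3.11, 2.26 and 12.8 CPM in HSD-F1. Both replicate 3 libraries were therefore the high ones for this sum. Most of it there came from Cp36 (25.7 CPM in ND, 4.83 CPM in HSD-F1) and Cp38 (21.1 and 4.01 CPM). Of the 8 markers, 4 had both replicate 3 libraries above the other 4. For 6 of the 9 genes both replicate 3 libraries lay outside the other 4, as they did for 14.6% of all genes tested.

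The repressors of the first loop come first. In Release 6 coordinates per lies on the X chromosome (Dmel_CG2647, X:2685580-2692780, plus strand, 8 merged exons, 4527 exonic bases). It encodes the repressor that returns to the nucleus at night. In ND its level was 20.0, 22.5 and 66.6 CPM in replicates 1, 2 and 3, and in HSD-F1 it was 18.7, 24.2 and 68.2 CPM. Replicate 3 was 3.13 times the mean of replicates 1 and 2 in ND and 3.18 times in HSD-F1, while libraries of the same number lay close together across the groups.

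The gene tim encodes the partner that stabilizes PER and is degraded in light (Dmel_CG3234, 2L:3493986-3508119, minus strand, 16 merged exons, 6181 exonic bases). Its level was 151, 91.8 and 303 CPM in ND, against 129, 83.7 and 276 CPM in HSD-F1. As with per, both replicate 3 libraries lay above the other 4, at 2.50 times the mean of replicates 1 and 2 in ND and 2.60 times in HSD-F1. Replicates 1 and 2 differed too, in opposite directions for these genes: replicate 1 was 1.64 times replicate 2 in ND and 1.53 times in HSD-F1 for tim, and 0.889 and 0.773 times for per.

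The ratio of tim to per within a library therefore singled out replicate 1. It was 7.53, 4.08 and 4.55 in ND and 6.87, 3.46 and 4.05 in HSD-F1. Replicate 3 held more of both transcripts than replicate 2, in a similar proportion. In bulk heads, fewer cells expressing a gene and less RNA in each cell cannot be told apart, for this and for every level below.

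**Figure D1:**
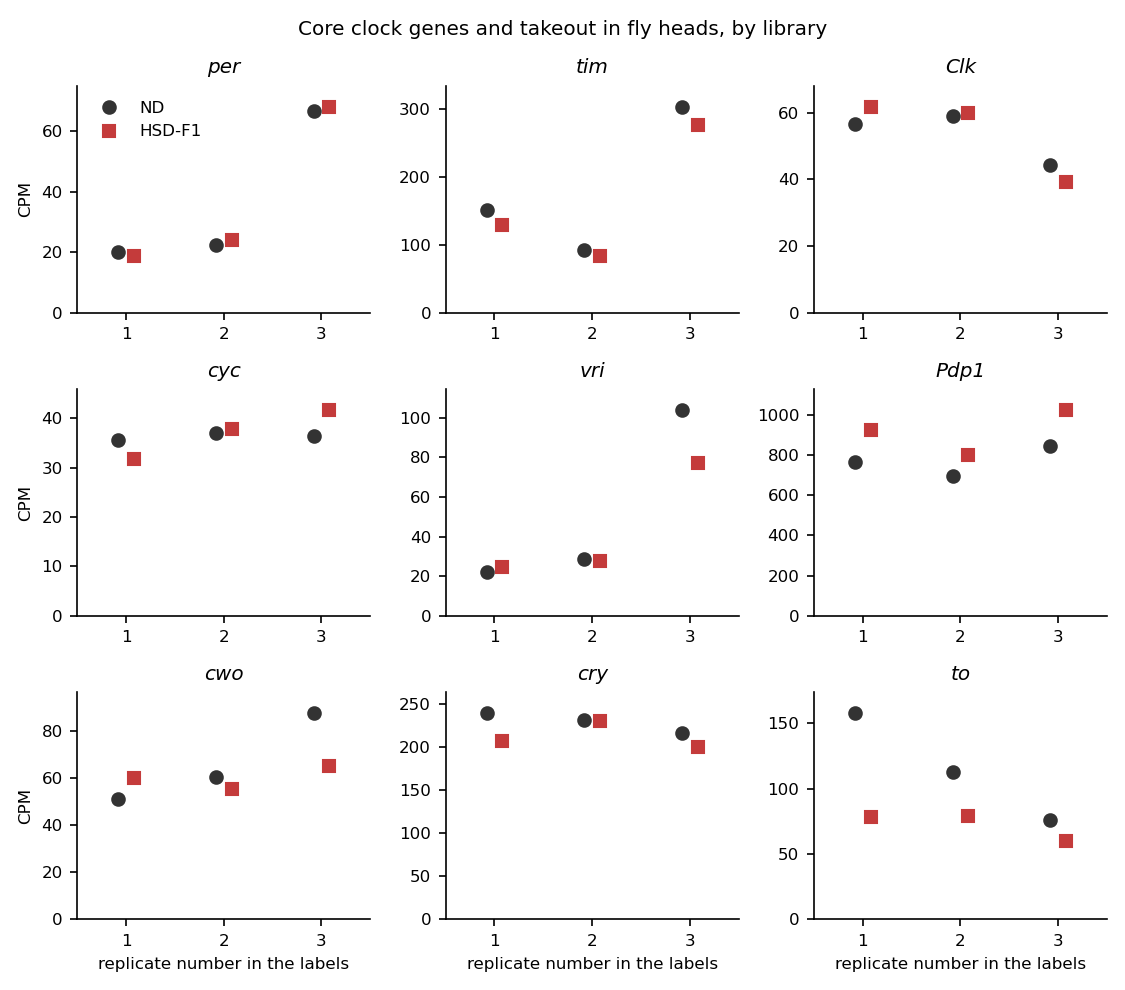
CPM of each gene (vertical axes, starting at 0 and scaled per gene) against the replicate number in the labels, with ND libraries as circles and HSD-F1 libraries as squares. Both replicate 3 libraries lie above the other 4 for per, tim, vri and cwo and below them for Clk and to.

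Of the activators, Clk encodes the transcription factor that gives the loop its name (Dmel_CG7391, 3L:7763233-7775603, minus strand, 9 merged exons, 4516 exonic bases). Its level was 56.7, 59.0 and 44.4 CPM in ND, against 61.9, 60.1 and 39.3 CPM in HSD-F1. Clk was thus lowest where per and tim were highest, at 0.767 times the mean of replicates 1 and 2 in ND and 0.644 times in HSD-F1.

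Its partner cyc, whose mRNA is not known to cycle in fly heads, lies on the same arm (Dmel_CG8727, 3L:19813770-19815938, minus strand, 5 merged exons, 1625 exonic bases). Its level was 35.6, 37.0 and 36.4 CPM in ND, against 31.8, 37.9 and 41.7 CPM in HSD-F1. In ND the replicate 3 library equalled the mean of replicates 1 and 2 (ratio 1.00), and in HSD-F1 it was the highest of the 3. The ratio of Clk to cyc was 1.59, 1.60 and 1.22 in ND and 1.95, 1.59 and 0.941 in HSD-F1, lowest in replicate 3 of each group.

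The genes of the second loop differed in how far replicate 3 stood from the other replicates. The repressor gene vri (Dmel_CG14029, 2L:5288944-5311223, plus strand, 5 merged exons, 4739 exonic bases) was at 21.9, 28.6 and 104 CPM in ND, against 24.9, 27.7 and 77.0 CPM in HSD-F1. It had the widest range of the 9 genes, with a highest library at 4.74 times the lowest. Its replicate 3 level was 4.11 times the mean of replicates 1 and 2 in ND and 2.93 times in HSD-F1.

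The activator gene Pdp1 (Dmel_CG17888, 3L:7811458-7867369, minus strand, 11 merged exons, 12138 exonic bases) was at 766, 697 and 844 CPM in ND, against 927, 800 and 1025 CPM in HSD-F1. Its replicate 3 library was the highest within each group, at 1.15 and 1.19 times the mean of replicates 1 and 2, but the groups were shifted and the replicate 3 libraries did not lie outside the other 4. RefSeq lists 13 transcripts for Pdp1, of which some are known to be non-cycling and made outside clock cells, and counts per gene do not separate them.

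The repressor gene cwo (Dmel_CG17100, 3R:10388258-10400752, plus strand, 4 merged exons, 5092 exonic bases) was at 51.1, 60.4 and 87.8 CPM in ND, against 60.2, 55.5 and 65.4 CPM in HSD-F1. Both replicate 3 libraries were above the other 4, by a wide margin in ND (1.57 times the mean of replicates 1 and 2) and a narrow one in HSD-F1 (1.13 times).

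The light receptor gene of the clock, cry (Dmel_CG3772, 3R:19212154-19215442, plus strand, 4 merged exons, 1896 exonic bases), was at 239, 231 and 216 CPM in ND, against 207, 230 and 200 CPM in HSD-F1. It was the flattest of the 9 genes, with a highest library only 1.19 times the lowest. Replicate 3 was the lowest library of ND, at 0.921 times the mean of replicates 1 and 2, and of HSD-F1, at 0.915 times.

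Takeout, the output gene (Dmel_CG11853, 3R:25240180-25241668, plus strand, 4 merged exons, 1253 exonic bases), was at 158, 113 and 76.3 CPM in ND, against 78.4, 79.3 and 59.8 CPM in HSD-F1. Replicate 3 was the lowest library in both groups, at 0.563 times the mean of replicates 1 and 2 in ND and 0.759 times in HSD-F1, so takeout sided with Clk and not with per, tim and vri. ND replicates 1 and 2 were above all HSD-F1 libraries, whereas ND replicate 3 lay among them.

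The loops can also be read against each other within each library, which does not depend on library size. The ratio of vri to Clk, the repressor over the gene it represses, was 0.387, 0.485 and 2.34 in ND and 0.402, 0.461 and 1.96 in HSD-F1. The ratio of tim to Clk was 2.66, 1.56 and 6.83 in ND and 2.08, 1.39 and 7.04 in HSD-F1. The ratio of vri to Clk was thus higher in replicate 3 than in replicates 1 and 2 of both groups. These are ratios of CPM, not of levels per length, so they compare libraries and not genes.

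A summary over 7 of these genes restates the values above and adds no support to them. Its genes differed unequally in replicate 3, most for per, tim and vri and little for Pdp1 and cry. The mean log2 CPM of per, tim, vri, Pdp1 and cwo, whose mRNAs are known to be high from dusk into the night, was 6.25, 6.24 and 7.44 in ND and 6.33, 6.24 and 7.30 in HSD-F1. The mean log2 CPM of Clk and cry, known to be high around dawn, was 6.86, 6.87 and 6.61 in ND and 6.82, 6.88 and 6.47 in HSD-F1. The difference of these means, taken as an index, was higher in replicate 3 than in replicates 1 and 2 of both groups. Its sign has no meaning, since genes of unlike length enter it as CPM, and only differences between libraries are read. It was -0.61, -0.62 and 0.82 in ND and -0.49, -0.63 and 0.83 in HSD-F1.

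**Figure D2:**
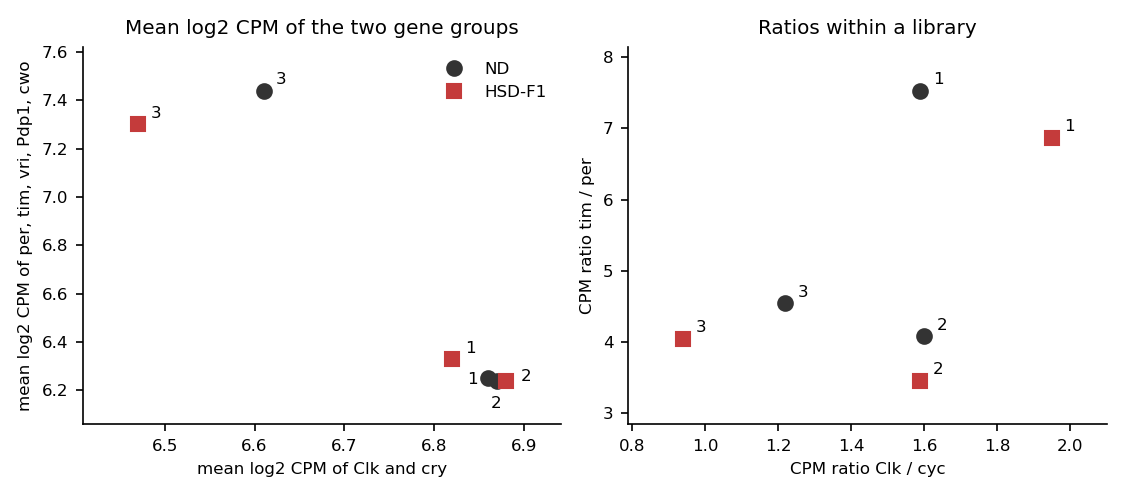
Left, mean log2 CPM of per, tim, vri, Pdp1 and cwo against mean log2 CPM of Clk and cry; right, the CPM ratio of tim to per against that of Clk to cyc. Each point is a library with its replicate number, ND as circles and HSD-F1 as squares, and the axes do not start at 0. On the left both replicate 3 libraries lie apart from the other 4, and on the right both replicate 1 libraries lie highest.

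Per kilobase of exonic length, the only scale on which genes are compared with each other here, the order of mean level over the 6 libraries was cry (116 CPM per kb), to (75.1), Pdp1 (69.5), tim (27.9), cyc (22.6), cwo (12.5), Clk (11.9), vri (9.99) and per (8.11). Neighbours in this order mostly overlapped in their ranges. The ranges were separate between Pdp1 (57.4 to 84.4 CPM per kb) and tim (13.5 to 49.0), and between cyc (19.6 to 25.7) and cwo (10.0 to 17.2). Exons of all isoforms were merged, so the level of a gene with many alternative exons, such as Pdp1, is understated on this scale.

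Overlap with other genes touched few of these counts. The exons of per share 49 bases with dyw on the opposite strand, a gene with 18 to 45 counts per library. Those of cry share 9 bases with vib on the opposite strand, with 3421 to 5583 counts per library, and 329 bases with lncRNA:CR46393 on the same strand, with 2 to 6 counts. A snoRNA gene with 0 counts lies in exonic sequence of tim, and Clk and vri overlap small genes with no shared exonic base. Whether strand was used in counting is not given in the sources used here.

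The study sequenced these heads to learn which genes with gained H3K27me3, a repressive histone mark, were lower in HSD-F1. The same libraries are compared here for the clock genes. For each of the 8 core clock genes the libraries of the groups overlapped. The fitted log2 fold changes (HSD-F1 over ND, edgeR, with standard errors) were 0.03 ± 0.57 for per, -0.16 ± 0.50 for tim and -0.25 ± 0.62 for vri, the genes with the widest spread between replicates. They were 0.01 ± 0.19 for Clk, 0.03 ± 0.12 for cyc, -0.14 ± 0.19 for cwo and -0.11 ± 0.10 for cry. Pdp1 had the highest of the 9 values, 0.25 ± 0.13, with group means of 769 ± 73.4 CPM in ND, against 917 ± 113 CPM in HSD-F1 (SD, n = 3) and ranges that overlapped.

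Group means of per show how little these fits can resolve. They were 36.4 ± 26.2 CPM in ND, against 37.0 ± 27.1 CPM in HSD-F1 (SD, n = 3), with replicate 3 far above the others in both groups. Without ND replicate 3 the log2 fold change of per was 0.80, and without HSD-F1 replicate 3 it was -0.76. The same omissions gave 0.42 and -0.78 for tim and 0.77 and -0.97 for vri, so which replicate 3 library is included sets the sign for all 3 genes. Leaving out the high library of 1 group alone must move the value away from that group. Without replicate 3 of both groups the values were 0.01 for per, -0.19 for tim and 0.06 for vri. The index over the loops had means of -0.14 ± 0.83 in ND and -0.10 ± 0.81 in HSD-F1 (SD, n = 3), a difference of 0.04, against a distance of replicate 3 from the mean of replicates 1 and 2 of 1.44 in ND. In HSD-F1 the replicates lay about as far apart, by the values given above.

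Takeout had the lowest fold change of the 9 genes. Its mean was 116 ± 40.7 CPM in ND, against 72.5 ± 11.0 CPM in HSD-F1 (SD, n = 3), a mean 1.60 times higher in ND, with a log2 fold change of -0.68 ± 0.24. It was past an unadjusted p of 0.05 and a change of 1.5-fold, the thresholds in the methods of the study, and was the only one of the 9 genes to be so, where 1.81% of the 12048 genes tested were, 0.672% as lower and 1.14% as higher in HSD-F1. Its adjusted p was 0.911 (edgeR quasi-likelihood test, Benjamini-Hochberg). The size of the difference rested on ND replicate 1: without it the log2 fold change was -0.39 and the unadjusted p 0.0852 (edgeR), and without HSD-F1 replicate 3 the values were -0.55 and 0.0825.

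At an adjusted p of 0.05 none of the 9 genes was called between the groups by edgeR, DESeq2 or limma-voom, where edgeR called 0.0664% of all genes tested. By each tool 1 gene, takeout, had an unadjusted p under 0.05, as 5.07% of all genes tested had in edgeR. None of the 9 had groups that did not overlap, which 11.8% of all genes tested had.

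**Figure D3:**
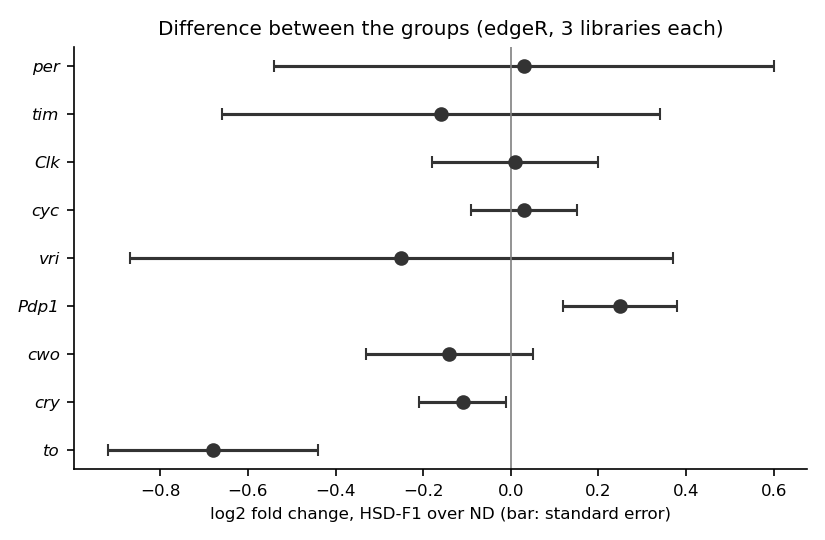
Log2 fold change of each gene, HSD-F1 over ND, from the edgeR fit on 3 libraries a group (points) with its standard error (bars). The bars of per, tim and vri are the longest, and takeout, at -0.68, lies farthest from 0.

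The contrast of replicate numbers was the larger one for most of these genes. Fitted with group as a further term, the log2 difference of replicate 3 from the mean of replicates 1 and 2 was 1.66 ± 0.11 (standard error) for per, 1.39 ± 0.10 for tim and 1.81 ± 0.14 for vri. It was 0.42 ± 0.14 for cwo, 0.23 ± 0.12 for Pdp1, 0.14 ± 0.13 for cyc, -0.12 ± 0.11 for cry, -0.51 ± 0.12 for Clk and -0.61 ± 0.14 for takeout. Between the other replicates, replicate 2 minus replicate 1 was -0.67 ± 0.12 for tim but 0.27 ± 0.14 for per and 0.27 ± 0.17 for vri.

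The replicate number term had an adjusted p under 0.05 for 3 of the 9 genes (per, tim and vri), where 0.531% of all genes tested did (edgeR). DESeq2 added takeout. Both replicate 3 libraries lay above the other 4 for per, tim, vri and cwo, as they did for 7.73% of all genes tested, and below them for Clk and takeout, as they did for 6.91%. These genes were chosen with the pattern known, so nothing is read from these counts. The sum of egg markers, made up there mostly of Cp36 and Cp38, was high in the same libraries (56.3 and 12.8 CPM in replicate 3 against 2.26 to 3.11 CPM in the others). The part of these markers in the result was not tested.

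Clock proteins are also controlled after translation. Of 15 kinases, phosphatases and turnover factors, 1 passed the adjusted test of the replicate number term, beside 0.531% of all genes tested (edgeR). It was Usp8, a deubiquitinase that acts on CLK. Its level was 34.6, 39.0 and 119 CPM in ND, against 33.5, 38.9 and 113 CPM in HSD-F1, close to the pattern of per. Its replicate 3 difference was 1.67 ± 0.10 on the log2 scale (adjusted p = 2.6e-04, edgeR). The most abundant of the list, sgg, the kinase that phosphorylates TIM, ranged from 437 to 554 CPM. The groups did not overlap for 3 of the 15, beside 11.8% of all genes tested. None of the 15 had an adjusted or an unadjusted p under 0.05 between the groups in edgeR, DESeq2 or limma-voom.

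Among 11 measured cofactors of clock transcription and translation, nej, the acetyltransferase CBP that binds CLK, had the only unadjusted p under 0.05 between the groups. Its level was 135, 130 and 131 CPM in ND, against 163, 145 and 162 CPM in HSD-F1 (log2 fold change 0.24 ± 0.09, adjusted p = 0.911, edgeR), where 5.07% of all genes tested had such an unadjusted p. The groups did not overlap for 3 of the 11, nej, Atx2 and Mef2, beside 11.8% of all genes tested. Atx2, which promotes translation of per, was at 189, 194 and 206 CPM in ND, against 221, 214 and 224 CPM in HSD-F1 (0.16 ± 0.09), and Mef2, a transcription factor in clock neurons, was lower in HSD-F1 (-0.09 ± 0.09). None of the 11 had an adjusted or unadjusted p under 0.05 for the replicate number term in edgeR, or an adjusted p under 0.05 in DESeq2.

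Other genes carry time out of the clock cells. None of 14 neuropeptides and receptors, with sNPF, ITP and Pdfr the most abundant, and none of 11 output effectors, with the potassium channel gene slo the most abundant, had an adjusted or unadjusted p under 0.05 in edgeR, either between the groups or for the replicate number term. DESeq2 called none of them in either, and limma-voom none between the groups, at an adjusted p under 0.05. The median log2 difference of replicate 3 was 0.08 over the neuropeptide list and -0.05 over the effectors, beside 0.00 over all genes tested. None of 9 light input genes passed either adjusted test in edgeR. For the replicate number term 2 of the 9 had an unadjusted p under 0.05, beside 6.86% of all genes tested (edgeR). Between the groups none had, beside 5.07%. DESeq2 called Rh6 for the replicate number term, beside 163 of all 12048 genes tested.

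Among 14 measured genes known to cycle in heads, 2 passed the adjusted test of the replicate number term, in opposite directions, beside 0.531% of all genes tested (edgeR). Achl, a clock-controlled gene known to restrain immune gene expression, was at 74.7, 80.1 and 13.6 CPM in ND, against 92.4, 77.9 and 5.58 CPM in HSD-F1 (log2 difference of replicate 3 -3.13 ± 0.30, adjusted p = 0.0039, edgeR). Gclm, a subunit of the enzyme that makes the precursor of glutathione, was at 45.3, 61.8 and 86.7 CPM in ND, against 48.9, 50.7 and 89.1 CPM in HSD-F1 (0.77 ± 0.12, adjusted p = 0.046, edgeR). Gclm missed the threshold without replicate 2 of either group, at adjusted p = 0.067 without that of ND and 0.11 without that of HSD-F1.

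Slob, which encodes a protein that binds the slo channel, had 347, 355 and 548 CPM in ND, against 297, 370 and 645 CPM in HSD-F1, with an adjusted p of 0.070 for the replicate number term in edgeR. DESeq2 called 5 of the 14 for this term, beside 163 of all 12048 genes tested: Slob, Ugt35B1, Gclm, Achl and CG10553. For CG10553 the larger log2 difference was replicate 2 minus replicate 1, -0.85 ± 0.17, against -0.19 ± 0.15 for replicate 3 (edgeR). None of the 14 had an unadjusted p under 0.05 between the groups in edgeR, DESeq2 or limma-voom.

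**Figure D4:**
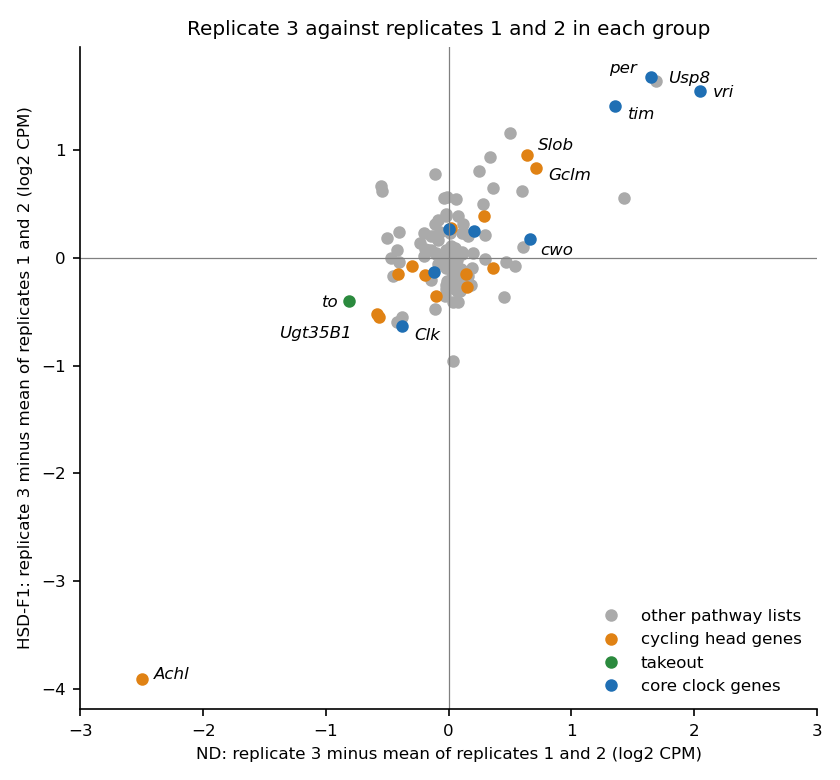
Log2 CPM of replicate 3 minus the mean of replicates 1 and 2 in ND (horizontal) and in HSD-F1 (vertical), a point for each gene of the pathway lists. The genes per, tim, vri and Usp8 lie at the upper right, Clk and takeout at the lower left, and Achl farthest down.

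By Pearson r of log2 CPM over the 6 libraries, among 7976 genes with a mean of at least 5 CPM, the genes most like tim were CG33506 (0.984), CG4853 (0.981), CG31751 (0.977), Cyp12a4 (0.959) and CG13315 (0.959). All 5 had the order of tim, with replicate 3 above replicate 1 and replicate 1 above replicate 2 in each group, but a much smaller range, with a highest library 1.17 to 1.58 times the lowest. Of the members, per (0.854), vri (0.853) and Clk (-0.896) followed tim less closely than these.

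The genes most like Clk were Achl (0.994), Tig (0.990), Hmu (0.986), Dbct (0.983) and Mrm2 (0.980), each with its lowest levels in both replicate 3 libraries. Their ranges ran from 1.26 times for Mrm2 to 16.6 times for Achl. Over the same libraries r was -0.961 between Clk and per and -0.907 between Clk and vri. These values are descriptions over 6 libraries scaled together, with the 2 replicate 3 libraries apart from the other 4 for Clk.

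The genes most like takeout were dve (0.990), CAH2 (0.987), CG4462 (0.980), Nlg1 (0.973) and fh (0.968), all highest in ND replicate 1. CAH2, a carbonic anhydrase gene, was at 304, 268 and 221 CPM in ND, against 225, 223 and 212 CPM in HSD-F1. Among the members, takeout was most like cry (0.843) and least like Pdp1 (-0.776).

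Relatives of takeout, 14 of them named as juvenile hormone binding protein (Jhbp) genes in RefSeq, were mostly lower in HSD-F1 by sign. Of 23 measured relatives 16 had a log2 fold change below 0 and 7 above, with a median of -0.14, beside -0.00 over all genes tested. None had an adjusted p under 0.05 in edgeR, DESeq2 or limma-voom, and 3 had an unadjusted p under 0.05 in edgeR, all lower in HSD-F1, where 5.07% of all genes tested did in either direction.

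The 3 were Jhbp1, Jhbp5 and Jhbp16. Jhbp1 was at 74.3, 77.7 and 64.8 CPM in ND, against 46.2, 57.1 and 56.5 CPM in HSD-F1, with no overlap (log2 fold change -0.44 ± 0.12, adjusted p = 0.911, edgeR). Jhbp16 did not overlap either, at the low level of 0.691 to 2.70 CPM. Jhbp5 was at 7.22 to 9.92 CPM in ND, against 6.07 to 7.43 CPM in HSD-F1, with ranges that overlapped.

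The most abundant relatives were Jhbp14, Jhbp13 and Jhbp3, with fold changes of -0.23 ± 0.12, -0.38 ± 0.17 and -0.14 ± 0.11 on the log2 scale. The genes next to takeout on its strand are relatives too. Jhbp7, 1284 bases before it, was at 4.40, 5.39 and 6.21 CPM in ND, against 2.61, 5.18 and 7.15 CPM in HSD-F1, above all other libraries in replicate 3, where takeout was lowest. CG11854, 351 bases after it, stayed between 0.874 and 1.96 CPM.

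**Figure D5:**
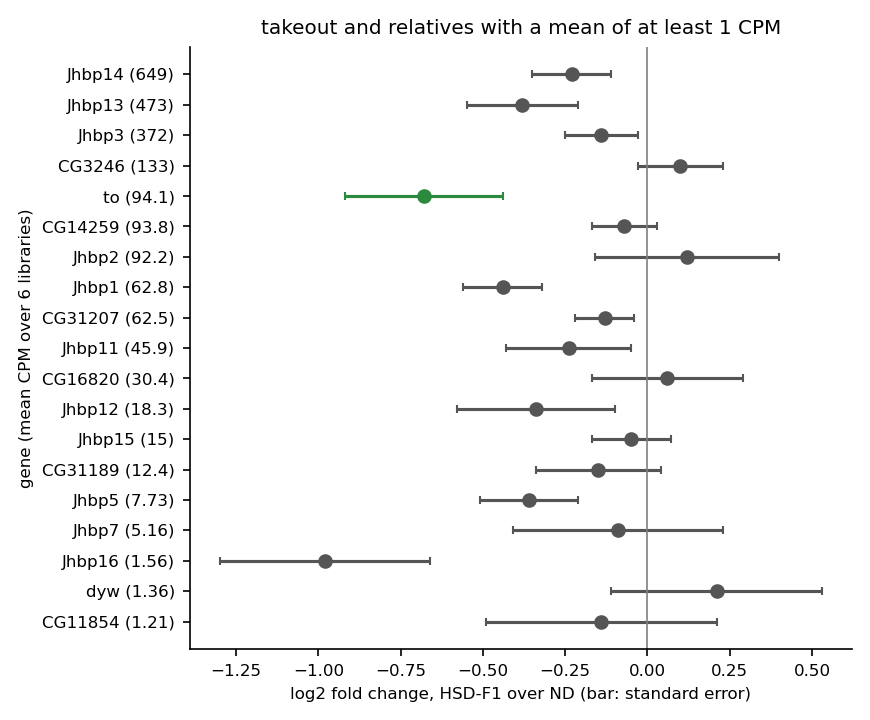
Log2 fold change (HSD-F1 over ND, edgeR, bars are standard errors) of takeout and its relatives with a mean of at least 1 CPM, 19 genes in all, ordered by mean CPM over 6 libraries, which stands in brackets. Takeout and Jhbp16 lie farthest below 0, and the 3 most abundant relatives lie below 0 by less.

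Takeout is also known as a gene of the male head fat body under control of the sex determination genes, and as one that responds to starvation. None of the 5 sex determination genes passed a test between the groups, adjusted or unadjusted, in edgeR, DESeq2 or limma-voom. Among 5 measured genes of the fasting response 2 were higher and 3 lower in HSD-F1 by sign. InR, the insulin receptor gene, had the only unadjusted p under 0.05 between the groups, beside 5.07% of all genes tested (edgeR). It was at 40.6, 42.2 and 56.6 CPM in ND, against 73.1, 62.7 and 52.8 CPM in HSD-F1 (log2 fold change 0.44 ± 0.16, adjusted p = 0.911, edgeR). For the replicate number term 3 of the 5 had an unadjusted p under 0.05, beside 6.86% of all genes tested (edgeR). DESeq2 called fit for this term, beside 163 of all 12048 genes tested. The 7 fat body markers, from the tissue that makes much of the takeout of the head in males, summed to 67131 to 82427 CPM in ND, against 66413 to 84092 CPM in HSD-F1, with ranges that overlapped. The yolk protein genes Yp1, Yp2 and Yp3 made up most of that sum. By sign all 7 were below 0 in HSD-F1, as takeout was, with a median log2 fold change of -0.16. For Yp1, Yp2 and Yp3 the values were -0.01 ± 0.11, -0.00 ± 0.20 and -0.10 ± 0.13, each smaller than its standard error. The others were -0.16 ± 0.17 for apolpp, -0.28 ± 0.19 for FASN1, -0.27 ± 0.22 for Lsp2 and -0.70 ± 0.60 for Fbp1, the last at under 1 CPM. Between the groups none of the 7 had an adjusted or unadjusted p under 0.05 in edgeR, DESeq2 or limma-voom. For the replicate number term 3 of the 7 had an unadjusted p under 0.05, beside 6.86% of all genes tested (edgeR). DESeq2 called FASN1 for this term, beside 163 of all 12048 genes tested. The part of these markers in the differences of takeout was not tested.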

How the data were processed

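Per the methods, polyadenylated RNA was sequenced on a BGISEQ 500 as 150-base paired-end reads, and uniquely mapped reads were kept. The values deposited by the authors are whole-number counts per gene and library, not normalized. HISAT2 2.0.4, Bowtie2 2.2.5, RSEM 1.2.12 and DESeq2 1.4.5 are named in the submitters' processing notes, without roles. How reads were counted and whether strand was used are not given in the sources used here. Reads shared by near-identical genes would be lost by unique mapping. Genes carry RefSeq locus tags with Release 6 coordinates, and 17504 of 17545 matched the RefSeq gene table by which they were named.

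Genes with at least 10 counts over 6 libraries (12048) were tested with edgeR 4.0.16 (quasi-likelihood, TMM, R 4.3.3), with group as the only term. The replicate number was tested as a term of 2 coefficients beside group. p-values were adjusted by Benjamini-Hochberg over all genes tested. DESeq2 1.42.0, limma-voom (limma 3.58.1), other size factors, other filters, a replicate block and omission of libraries were the alternatives. log2 CPM used a prior count of 2. Totals of 20266352 to 26190694 counts set the precision, and p-values measure the spread between these libraries only.

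The members and the 18 gene lists (172 symbols, 171 matched) were chosen with earlier results of these data known. Beyond the members, up to 3 of the most abundant genes of a list could be named, and those with an unadjusted p under 0.05 between groups or an adjusted p under 0.05 for the replicate number term, with the 5 genes most like tim, Clk and to. Slob, Jhbp7, CG11854 the fat body markers, Mef2 and the genes only DESeq2 called were named in addition, after their values were seen. No sequences are shown.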

Additional observations from a re-analysis of the deposited data

How the results depend on the processing

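Genes past an unadjusted p of 0.05 and 1.5-fold numbered 218, but 119 with at least 10 counts required in every library and 140 with DESeq2, and 203 to 252 over the omissions of 1 library at a time. Genes at an adjusted p under 0.05 numbered 8, but 28 with DESeq2, 5 with limma-voom, 18 without replicate 3 of both groups, and 4 to 21 over those omissions. The replicate number term called 64 genes, but 22 with at least 10 counts in every library and 163 with DESeq2, and 102 to 245 over the omissions, for this term added after seeing the data. The index difference of 0.04 ran from -0.43 to 0.52 over omissions and was -0.08 for per, tim and vri against Clk, all within 1 SD (0.82). The cause of these differences was not tested.

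With the replicate number as a block, 38 genes in place of 8 had an adjusted p under 0.05, and 264 in place of 218 passed the unadjusted thresholds. Deviations from the group means correlated at r = 0.245, 0.00838 and 0.279 for libraries numbered 1, 2 and 3 in both groups, so replicates 1 and 3 correlated best with their own number and the libraries numbered 2 did not (ND replicate 2 at 0.0375 with HSD-F1 replicate 1, HSD-F1 replicate 2 at 0.0704 with ND replicate 1). Whether a number marks a shared batch or day is not given in the sources used here, and the block is kept as an alternative. It lowered the standard errors of the log2 fold changes to 0.11 for per, 0.10 for tim and 0.13 for vri, with values of 0.01, -0.16 and -0.11, and gave -0.63 ± 0.13 for takeout. It brought none of the 9 members under an adjusted p of 0.05.

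Over 13 settings the sign held for Pdp1 (0.17 to 0.34), cry (-0.17 to -0.06) and takeout (-0.90 to -0.39), and turned in at least 2 settings for each of the other 6 members, whose log2 fold changes stayed within the spread between replicates. Takeout had an unadjusted p under 0.05 in 11 of the 13 and Pdp1 in 1, and no member an adjusted p under 0.05 in any. Of the other values, Gclm also lost its call at adjusted p = 0.092 with at least 10 counts in every library, and without replicate 3 of both groups the log2 fold changes of InR and Lk6 moved to 0.72 and 0.15. Without the block, the standard errors of 0.50 to 0.62 for per, tim and vri limit what 3 libraries a group resolve.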
